A study of Homo sapiens with 8 samples.

Results

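The transcripts of 51 genes that carry cells from G1 into S phase and copy the DNA were followed in PANC-1 cells under eupalinolide B (EB). The members are the rows of the deposited table whose human Ensembl identifier maps to 1 of 51 chosen symbols, and all 51 were found among 20263 genes. They were sorted into 9 roles: E2F factors, G1 cyclins and kinases, origin licensing, the replicative helicase, the clamp and its loader, primase and polymerases, Okazaki fragment processing, deoxynucleotide supply and chromatin duplication. PANC-1 is an established line from a human carcinoma of the pancreatic duct. Cells received 10 μM EB, a compound from the plant Eupatorium lindleyanum, or its vehicle dimethyl sulfoxide (DMSO), and RNA was taken after 24 h for mRNA sequencing. There were 4 libraries per group, described in the methods as biological replicates, although the methods also speak of triplicates, and all come from 1 cell line. Table columns headed C were read as control, that is DMSO, and those headed H as EB, the other group of the design, since no source used here explains the letter H.

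Passage from G1 into S phase is controlled by D-type and E-type cyclins with their kinases, which phosphorylate the retinoblastoma protein and so free E2F transcription factors from it. Before S phase, the origin recognition complex, CDC6 and CDT1 load the MCM helicase on DNA, and geminin blocks CDT1 once replication has begun. CDC45 and the GINS complex then activate the helicase, primase with polymerase alpha lays down primers, and polymerases delta and epsilon extend them with the sliding clamp PCNA. Many genes of this machinery are known E2F targets whose transcripts peak around the G1/S boundary.

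The values are TPM, which give each transcript's share of a library after correction for its length, so that levels can be compared between genes. TPM sum to a fixed total and keep no depth, so no error of counting can be given. DMSO replicate 4 stood apart, with 39% of its TPM in the 13 mitochondrially encoded genes, against 17 to 21.1% in the other DMSO libraries and 11.6 to 20.3% in the EB libraries. It was the lowest of the DMSO libraries for 38 of the 50 members tested and for 77% of all genes tested, so values without it are also given for members whose call changed without it. Of 8 markers of duct epithelium, the keratins KRT8, KRT18 and KRT19 with MUC1 and SOX9 were above 1 TPM in all 8 libraries, whereas KRT7 reached at most 0.297 TPM, EPCAM at most 0.387 TPM and CFTR was listed at 0. The summed TPM of these 8 markers were 1145 to 1613 with DMSO and 3267 to 3654 with EB. Of 6 fibroblast markers, DCN and LUM were listed at 0 in all libraries, and the sum was 64.0 to 91.8 TPM with DMSO and 38.8 to 50.5 TPM with EB, nearly all of it COL1A2. The 5 leukocyte markers summed to at most 1.37 TPM and the 4 endothelial markers to at most 0.305 TPM in any library, with PTPRC, CD3E, LYZ and PECAM1 listed at 0. The part of these shifts in the results was not tested. In bulk RNA, a change in the share of cells in S phase and a change in RNA per cell cannot be told apart.

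More members rose than fell under EB. With limma on log2(TPM + 1) and Benjamini-Hochberg adjustment over 11725 genes (1 TPM or more in 4 or more libraries), 19 of the 50 members tested rose at an adjusted p under 0.05 (38%), beside 15.2% of all genes tested. In the other direction, 1 member fell, ORC2, beside 25.1% of all genes. The remaining 30 members did not pass the test. The median log2 fold change (EB minus DMSO) was 0.28 over the members, with a range from −0.60 to 1.07, and −0.11 over all genes tested. The 4 EB values lay all above the 4 DMSO values for 24 members, beside 16.6% of all genes, and all below them for 1 member, beside 20.3%. None of the 50 members passed an unadjusted limma p under 0.05 together with a log2 fold change beyond 1.5 either way, a pair of thresholds taken from the study, beside 2.08% of all genes. By unadjusted limma p under 0.05 alone, 28 of the 50 members passed (56%), higher or lower, a share near the background of 50% of all genes.

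Called members kept their direction in every setting tried. Of the 19 rises, 12 were called in every setting and without each library, namely E2F1, CCNE1, GMNN, CDC45, GINS2, PCNA, RFC4, POLA2, PRIM2, FEN1, RRM2 and TK1, except that CCNE1 lost its call with the length trend removed and DMSO replicate 1 or 3 left out as well. The number of falls depended on scaling and on single libraries. Quantile normalization gave 24 higher and 7 lower members, beside 23.8% and 23.5% of all genes. TPM rescaled over nuclear genes alone gave 15 higher and 9 lower, beside 12.1% and 41.4%. Without DMSO replicate 4 there were 18 higher and 9 lower members, beside 15.7% and 36.4%. Without EB replicate 2 there were 12 higher and 4 lower, beside 12.1% and 24.6%. The same 9 genes were lower without DMSO replicate 4 and over nuclear genes alone, namely CCND1, ORC2, MCM2, MCM4, MCM7, RFC1, POLE, LIG1 and TYMS. In the heat map of members by library, DMSO replicate 4 shows as a blue column.

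**Figure D1:**
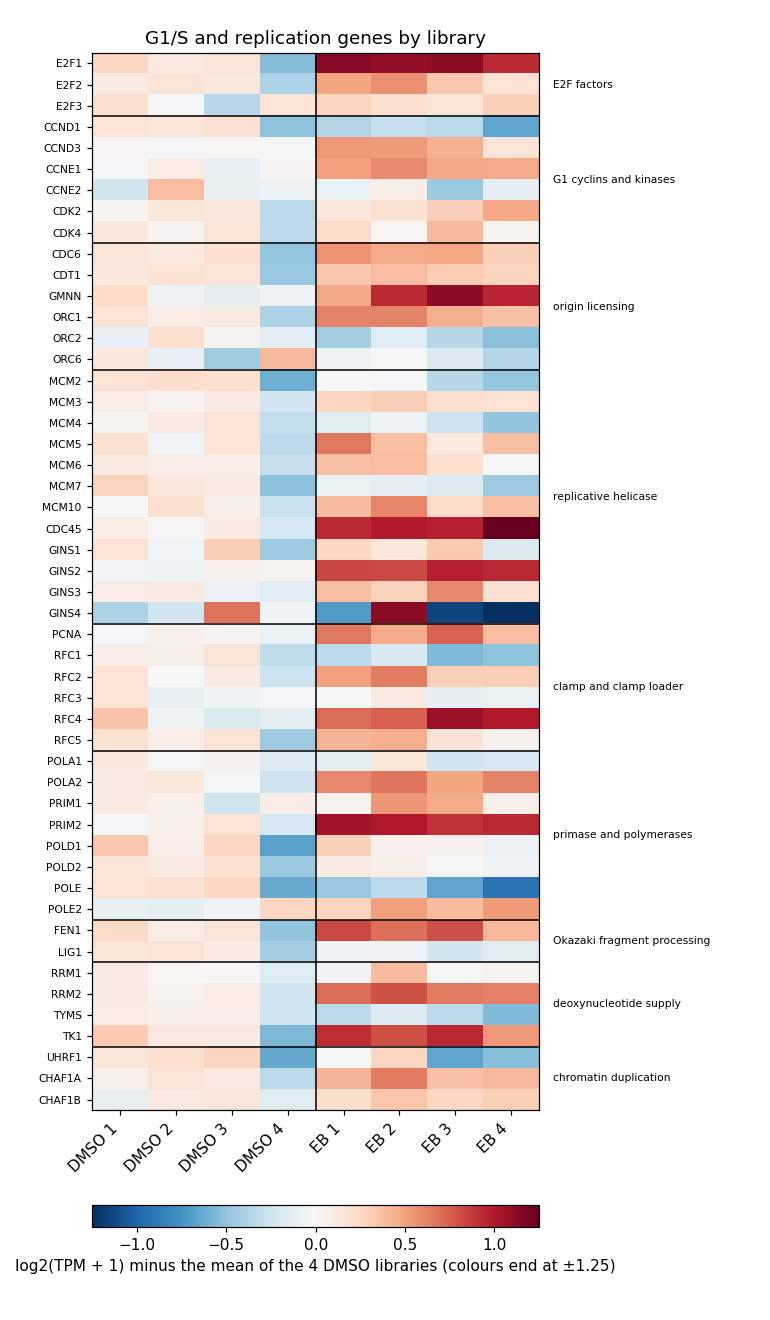
Heat map of the 50 members tested (rows, by role) in the 8 libraries (columns), coloured by log2(TPM + 1) minus the mean of the 4 DMSO libraries of that gene, red for higher and blue for lower. E2F1, CDC45, GINS2, RFC4 and PRIM2 are red in all 4 EB libraries, and DMSO replicate 4 is the lowest DMSO library for 38 of the 50 members.

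Of the 3 E2F factors, E2F1 rose as deposited. E2F1, an activator of S phase genes at chr20:33675477-33686385 (hg38), stood at 62.0, 56.2, 57.9 and 35.3 TPM in DMSO replicates 1 to 4 and at 115, 112, 114 and 99.4 TPM in EB replicates 1 to 4, the order used for all library values here. Every EB library lay above every DMSO library. The mean was 109.8 ± 7.03 TPM with EB against 52.9 ± 11.99 with DMSO (SD, n = 4 each), a 2.08-fold level (log2 fold change 1.07, SE 0.18, limma adjusted p = 0.00184), and without DMSO replicate 4 it rose by 0.89. E2F2, a close relative of E2F1 at a far lower level, had 7.15, 7.40, 7.23 and 4.72 TPM with DMSO and 9.62, 10.2, 8.54 and 7.55 TPM with EB. Its groups did not overlap, but it missed the threshold as deposited (log2 fold change 0.40, limma adjusted p = 0.072). E2F3, the third activator E2F, had 5.80, 4.85, 3.63 and 5.62 TPM with DMSO and 6.15, 5.81, 5.60 and 6.26 TPM with EB. Its groups overlapped, with a log2 fold change of 0.23 (limma adjusted p = 0.219).

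The promoters of some members are shown because these genes are known E2F targets and because the E2F word stood in genes that rose and in genes that did not. The words searched were TTTCCCGC, TTTGGCGC, TTTCGCGC and TTTGCCGC, the spellings of the classical E2F element, on both strands, from 250 bases before to 50 bases after the RefSeq start (GRCh38.p14). TTTCGCGC can overlap itself on the opposite strand, and each gene was counted once. A RefSeq promoter was matched for 45 of 51 members, but not for CCND1, CCNE2, CDK2, MCM4, MCM5 and GINS4. At least 1 word stood in 22 of the 45 members (48.9%), against 6.91% of 9488 genes tested with a promoter and 3.99% of all 27305 genes with one. By single windows, it stood in 37.7% of 61 member windows and 3.31% of all 35116 windows. The 60 bases before the start, 5′ to 3′ on the gene's strand with the word in capitals, are given for E2F1 (chr20:33686386-33686445, minus strand), GINS2 (chr16:85688955-85689014, minus), PCNA (chr20:5126623-5126682, minus) and POLA2 (chr11:65261902-65261961, plus), which rose, then for E2F2 (chr1:23531234-23531293, minus) and CDT1 (chr16:88803729-88803788, plus), which were not called as deposited and were called with the length trend removed, and for RFC3 (chr13:33818089-33818148, plus), POLE (chr12:132687343-132687402, minus) and TYMS (chr18:657593-657652, plus), which did not rise.
E2F1: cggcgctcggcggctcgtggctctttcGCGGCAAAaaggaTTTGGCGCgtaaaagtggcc
GINS2: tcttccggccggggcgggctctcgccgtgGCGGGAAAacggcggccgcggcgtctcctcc
PCNA: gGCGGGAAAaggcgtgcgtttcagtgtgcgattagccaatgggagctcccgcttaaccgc
POLA2: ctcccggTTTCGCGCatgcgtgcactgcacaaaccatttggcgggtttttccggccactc
E2F2: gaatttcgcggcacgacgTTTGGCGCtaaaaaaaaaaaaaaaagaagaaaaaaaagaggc
CDT1: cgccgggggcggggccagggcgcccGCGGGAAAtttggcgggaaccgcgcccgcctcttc
RFC3: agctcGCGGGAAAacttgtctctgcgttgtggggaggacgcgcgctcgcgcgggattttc
POLE: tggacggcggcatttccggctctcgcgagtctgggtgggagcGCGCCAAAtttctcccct
TYMS: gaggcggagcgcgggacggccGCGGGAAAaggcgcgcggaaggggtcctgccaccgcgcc

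GINS2, PCNA, CDT1, RFC3 and TYMS hold the same word, TTTCCCGC, read on the opposite strand, and their log2 fold changes ran from −0.35 to 0.89. E2F2 and POLE hold TTTGGCGC, which in POLE is read on the opposite strand, and E2F1 holds it next to TTTGCCGC. Of the 22 members with a word, 7 rose and none fell, with a median log2 fold change of 0.24. Of the 22 tested members with a promoter and no word, 12 rose and ORC2 fell, with a median of 0.41. Of all genes tested, 15.2% rose and 25.1% fell. Once the library trends on length and GC content were subtracted, as described further on, 13 members rose in either set, beside 24.4% of all genes. The medians were then 0.31 and 0.37. A match is a description of the letters and not a bound site.

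Of the 6 G1 cyclins and kinases tested, CCNE1 and CCND3 rose and none fell. CCNE1, cyclin E1, which drives the kinase CDK2 (chr19:29811991-29824312), stood at 35.4, 38.3, 33.5 and 36.8 TPM with DMSO and 51.9, 54.7, 50.7 and 50.2 TPM with EB. The groups were well apart and DMSO replicate 4 was within its group (log2 fold change 0.52, SE 0.11, limma adjusted p = 0.00527). CCND3, cyclin D3, stood at 29.4, 28.7, 29.7 and 29.0 TPM with DMSO and 43.0, 42.6, 40.1 and 32.8 TPM with EB. EB replicate 4 was the lowest of its group, still above all DMSO libraries (log2 fold change 0.42, SE 0.12, limma adjusted p = 0.0226), and the call was kept in 3 of the 8 fits that leave out 1 library. CCND1, cyclin D1, stood at 81.2, 80.1, 82.4 and 50.6 TPM with DMSO and 55.9, 58.8, 56.9 and 45.2 TPM with EB. DMSO replicate 4 lay below 3 of the EB libraries, and the log2 fold change of −0.41 did not pass (limma adjusted p = 0.0897), though it did without that library (−0.58). CCNE2, cyclin E2, stood at 2.44, 4.30, 2.80 and 2.85 TPM with DMSO and 2.81, 3.27, 1.93 and 2.70 TPM with EB, with a log2 fold change of −0.15 (limma adjusted p = 0.513). CDK2 and CDK4, the kinase partners, had log2 fold changes of 0.28 and 0.17 (limma adjusted p = 0.157 and 0.382). CDK6, the other cyclin D kinase, was at 0.105 to 0.416 TPM and was not tested, whereas CDK4 had a mean of 91.6 TPM with DMSO. Exons of INTS8 cover 1629 bases of CCNE2 exons and those of TSPAN31 cover 1369 bases of CDK4 exons on the other strand, and since no source used here states stranded counting, these values are uncertain. Over all roles, 25 members share exon bases with another gene, 12 of them with a protein-coding gene on the other strand. GINS4 and MCM2 share 1145 and 1113 bases with long noncoding genes there. The part of these overlaps in the values was not tested.

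**Figure D2:**
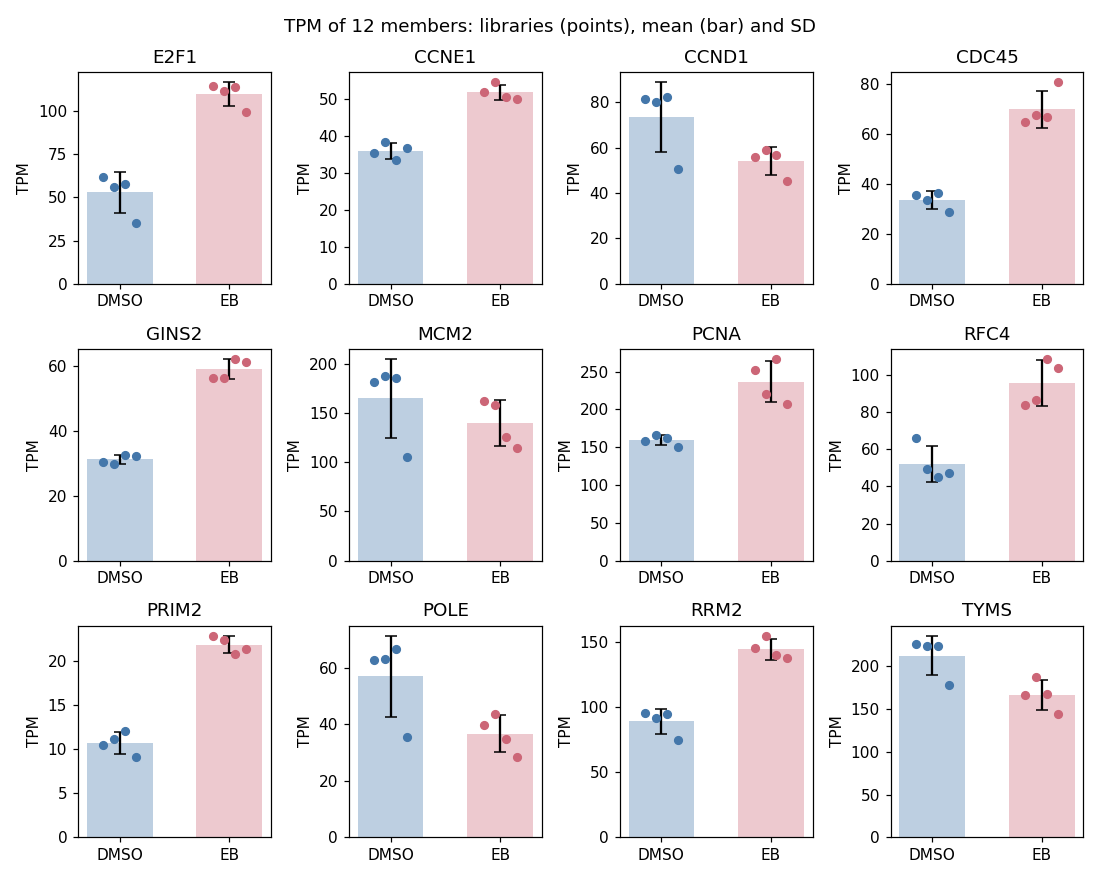
TPM (vertical axis, from 0) of 12 members in DMSO and EB, with each library as a point, the mean as a bar and the SD (n = 4) as an error bar. In E2F1, CCNE1, CDC45, GINS2, PCNA, RFC4, PRIM2 and RRM2 every EB point lies above every DMSO point, whereas in CCND1, MCM2, POLE and TYMS the groups overlap only through DMSO replicate 4.

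Of the 6 licensing genes, GMNN and ORC1 rose and ORC2 fell. GMNN, geminin, the inhibitor of CDT1 (chr6:24774931-24786099), stood at 30.6, 24.5, 23.4 and 24.3 TPM with DMSO and 36.0, 49.8, 56.6 and 50.6 TPM with EB. The highest DMSO library lay close to the lowest EB library, and the others were far apart (log2 fold change 0.87, SE 0.16, limma adjusted p = 0.00292). ORC1, the largest subunit of the origin recognition complex, stood at 15.5, 14.5, 14.8 and 10.1 TPM with DMSO and 21.3, 21.3, 18.9 and 17.7 TPM with EB. Its groups did not overlap (log2 fold change 0.51, SE 0.15, limma adjusted p = 0.024), and the call was kept in 5 of 8 fits without 1 library. ORC2, another subunit of the complex (chr2:200908977-200963680), stood at 13.1, 16.4, 14.6 and 12.8 TPM with DMSO and 10.2, 12.5, 10.8 and 9.505 TPM with EB. Its EB values lay below all DMSO values by a small margin (log2 fold change −0.37, SE 0.13, limma adjusted p = 0.0486), and the call was kept in 2 of 8 such fits. CDC6, an MCM loader, had 23.6, 23.1, 24.6 and 14.9 TPM with DMSO and 31.7, 29.7, 30.0 and 26.2 TPM with EB, without overlap and just short of the threshold (log2 fold change 0.45, limma adjusted p = 0.0532). Without DMSO replicate 4, the lowest of its group, CDC6 was at 0.29 and was called. CDT1, the loader that geminin blocks, had 98.4, 102, 101 and 64.4 TPM with DMSO and 114, 118, 112 and 109 TPM with EB. It did not overlap either, with a log2 fold change of 0.33 (limma adjusted p = 0.13), and of 0.17 and no call without DMSO replicate 4. ORC6 had a log2 fold change of −0.15 (limma adjusted p = 0.539).

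Within the replicative helicase, 4 of the 6 genes for CDC45, GINS and MCM10 rose, and none of the 6 genes for the MCM2 to MCM7 ring was called in either direction. Of all genes tested, 15.2% rose and 25.1% fell. The medians of the log2 fold change were 0.38 and 0.01, and the difference between both sets was not tested. It was smaller with the length and GC trend removed, where 4 of 6 and 3 of 6 rose, beside 24.4% of all genes, with medians of 0.52 and 0.18. CDC45, the factor that joins MCM and GINS in the active helicase (chr22:19479457-19520612), stood at 35.7, 33.7, 36.2 and 28.7 TPM with DMSO and 64.6, 67.4, 66.8 and 80.8 TPM with EB. The lowest EB library was far above the highest DMSO library. The mean was 69.9 ± 7.38 TPM with EB against 33.6 ± 3.45 with DMSO (log2 fold change 1.04, SE 0.13, limma adjusted p = 0.000459), a 2.08-fold level. GINS2 (chr16:85676198-85690073), a subunit of the 4-part GINS complex, stood at 30.5, 29.9, 32.7 and 32.3 TPM with DMSO and 56.5, 56.4, 62.4 and 61.3 TPM with EB. Both groups were tight, and DMSO replicate 4 did not stand apart (log2 fold change 0.89, SE 0.11, limma adjusted p = 0.000394). MCM10, which helps start the helicase, stood at 14.0, 16.3, 14.8 and 11.4 TPM with DMSO and 18.7, 21.9, 16.7 and 18.5 TPM with EB (log2 fold change 0.40, SE 0.14, limma adjusted p = 0.0459), and GINS3 had a log2 fold change of 0.36 (limma adjusted p = 0.0497). The calls of MCM10 and GINS3 were each kept in 1 of 8 fits without 1 library, and not without DMSO replicate 4 (0.31 and 0.32). GINS1 had a log2 fold change of 0.14 (limma adjusted p = 0.58).

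GINS4 had the largest standard error of the members on the log2 scale (0.51), at 21.3, 23.8, 45.8 and 27.1 TPM with DMSO and 16.9, 62.7, 12.1 and 8.88 TPM with EB. EB replicate 2 was the highest of all 8 libraries and the other EB libraries were the lowest (log2 fold change −0.58, limma adjusted p = 0.389), with a value of −1.14 and a call without EB replicate 2. In the MCM ring, MCM7 had the highest level, at 326 TPM with DMSO. MCM2 stood at 182, 188, 186 and 105 TPM with DMSO and 162, 158, 126 and 115 TPM with EB. DMSO replicate 4 was the lowest of all libraries, and the log2 fold change was −0.21 (limma adjusted p = 0.447). MCM3, MCM5 and MCM6 had log2 fold changes of 0.24, 0.38 and 0.23 (limma adjusted p = 0.141, 0.0877 and 0.23), and MCM2, MCM4 and MCM7 of −0.21, −0.24 and −0.21 (limma adjusted p = 0.447, 0.22 and 0.386). The signs of MCM2, MCM4 and MCM7 were negative, and these were called lower without DMSO replicate 4 (−0.41, −0.35 and −0.38).

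Of the 6 genes of the clamp and its loader, PCNA, RFC2 and RFC4 rose. PCNA, the sliding clamp (chr20:5114953-5126626), stood at 158, 166, 163 and 150.5 TPM with DMSO and 253, 221, 267 and 208 TPM with EB. The EB libraries differed more among themselves than the DMSO libraries and lay above all of them (log2 fold change 0.56, SE 0.12, limma adjusted p = 0.00634). The annotation holds processed copies of PCNA, with which its reads could be shared. RFC4, a subunit of the clamp loader (chr3:186789880-186807058), stood at 66.2, 49.3, 45.3 and 47.1 TPM with DMSO and 84.2, 86.9, 109 and 104 TPM with EB. DMSO replicate 1 was the highest of its group and still below every EB library (log2 fold change 0.88, SE 0.16, limma adjusted p = 0.00244). RFC2, another loader subunit, stood at 71.4, 62.6, 67.6 and 52.0 TPM with DMSO and 90.5, 98.4, 77.7 and 78.1 TPM with EB (log2 fold change 0.44, SE 0.14, limma adjusted p = 0.0334), with the call kept in 4 of 8 fits without 1 library. RFC5, RFC3 and RFC1 were not called, with log2 fold changes of 0.27, −0.02 and −0.39 (limma adjusted p = 0.236, 0.905 and 0.0568), but RFC1 was called lower without DMSO replicate 4 (−0.50) and, with a value of −0.46, without EB replicate 2. RFC1, the large subunit, has the longest transcript of the group at 4870 nucleotides, and RFC4 and PCNA have 1365 and 1276.

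Of the 8 genes for primase and polymerases, PRIM2, POLA2 and POLE2 rose. PRIM2, the large subunit of primase (chr6:57314805-57646850), stood at 10.5, 11.2, 12.1 and 9.09 TPM with DMSO and 22.9, 22.4, 20.8 and 21.4 TPM with EB. It was at 2.04 times the DMSO mean with little spread in either group (log2 fold change 0.97, SE 0.12, limma adjusted p = 0.000459), but the annotation holds a partial copy, PRIM2BP, with which its reads could be shared, so the level is uncertain. POLA2, the accessory subunit of polymerase alpha (chr11:65261913-65305959), stood at 29.0, 29.3, 26.3 and 22.0 TPM with DMSO and 40.6, 42.6, 37.8 and 41.3 TPM with EB. The groups were apart (log2 fold change 0.60, SE 0.13, limma adjusted p = 0.00571), although an unnamed protein-coding gene shares 2012 exon bases with it on the same strand. POLE2, an accessory subunit of polymerase epsilon, stood at 18.5, 18.2, 19.1 and 23.8 TPM with DMSO and 24.2, 28.8, 26.4 and 29.1 TPM with EB. DMSO replicate 4 was here the highest of its group and close to EB replicate 1 (log2 fold change 0.43, SE 0.13, limma adjusted p = 0.0255), and the call was kept in 2 of 8 fits without 1 library.

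The catalytic subunits did not rise as deposited. POLE, the catalytic subunit of polymerase epsilon and the member with the longest transcript tested (7823 nucleotides), stood at 62.5, 63.2, 66.4 and 35.4 TPM with DMSO and 39.5, 43.7, 34.6 and 28.6 TPM with EB. DMSO replicate 4 fell within the EB range, and the log2 fold change of −0.60 narrowly missed the threshold (limma adjusted p = 0.0506), with a call without DMSO replicate 4 (−0.81). POLA1, the catalytic subunit of polymerase alpha, stood at 20.4, 18.3, 19.3 and 16.3 TPM with DMSO and 16.8, 20.7, 15.5 and 15.8 TPM with EB, a log2 fold change of −0.11 (limma adjusted p = 0.538). POLD1, POLD2 and PRIM1, for polymerase delta and the small primase subunit, had log2 fold changes of 0.09, 0.03 and 0.28 (limma adjusted p = 0.773, 0.893 and 0.183).

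Of the pair that processes Okazaki fragments, FEN1 rose and LIG1 did not pass. FEN1, the flap endonuclease that trims the fragments (chr11:61792911-61797238), stood at 62.6, 56.2, 58.9 and 37.2 TPM with DMSO and 94.5, 85.4, 92.6 and 70.7 TPM with EB. DMSO replicate 4 was the lowest and the groups did not overlap (log2 fold change 0.68, SE 0.18, limma adjusted p = 0.0145). LIG1, the ligase that seals them, stood at 45.6, 46.4, 44.1 and 30.2 TPM with DMSO and 39.3, 39.8, 34.8 and 36.8 TPM with EB. Its DMSO replicates 1 to 3 were above all EB libraries and DMSO replicate 4 was below them (log2 fold change −0.12, limma adjusted p = 0.567), and LIG1 was called lower without that library (−0.26).

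Of the 4 genes of deoxynucleotide supply, TK1 and RRM2 rose. TK1, thymidine kinase of the salvage pathway (chr17:78174091-78187233), stood at 189.9, 165, 163 and 102 TPM with DMSO and 288, 263, 292 and 220.1 TPM with EB. The groups did not overlap (log2 fold change 0.80, SE 0.20, limma adjusted p = 0.0105). RRM2, the subunit of ribonucleotide reductase made in S phase (chr2:10120698-10211725), stood at 95.5, 91.2, 94.8 and 74.8 TPM with DMSO and 145, 155, 139.5 and 137 TPM with EB. Its EB libraries were close to each other and well above the DMSO libraries (log2 fold change 0.69, SE 0.12, limma adjusted p = 0.00248), whereas RRM1, the other subunit, had a log2 fold change of 0.10 (limma adjusted p = 0.574). TYMS, thymidylate synthase of the de novo pathway, stood at 226, 223, 223 and 178 TPM with DMSO and 167, 188, 167 and 144 TPM with EB. DMSO replicates 1 to 3 were nearly equal and above all EB libraries, and replicate 4 lay among the EB libraries (log2 fold change −0.35, limma adjusted p = 0.062), with a call without replicate 4 (−0.43). Exons of ENOSF1 on the other strand cover 967 bases of TYMS exons, so its level is uncertain.

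Of the 3 genes of chromatin duplication, CHAF1A rose. CHAF1A, the large subunit of the histone chaperone CAF-1, stood at 58.5, 62.7, 61.0 and 44.01 TPM with DMSO and 75.7, 88.6, 72.5 and 74.5 TPM with EB. The groups did not overlap (log2 fold change 0.46, SE 0.14, limma adjusted p = 0.0292), and the call was kept in 3 of 8 fits without 1 library. CHAF1B, its partner, stood at 18.5, 21.8, 22.1 and 17.8 TPM with DMSO and 23.4, 25.7, 24.1 and 24.8 TPM with EB, also without overlap (log2 fold change 0.28, limma adjusted p = 0.0847). UHRF1, which brings the maintenance methyltransferase to newly copied DNA, stood at 79.8, 82.8, 87.5 and 45.7 TPM with DMSO and 70.7, 86.6, 44.9 and 49.2 TPM with EB. EB replicates 3 and 4 lay near DMSO replicate 4 and the groups overlapped (log2 fold change −0.24, limma adjusted p = 0.49).

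Fold changes in these libraries moved with transcript length. The length used is that of the Ensembl canonical transcript in GENCODE release 44, with a median of 2879 nucleotides for the members and 3222 for all genes tested. Spearman's rho between length and log2 fold change was −0.48 across 11685 genes and −0.42 across the 50 members, given as descriptions, since genes of the same libraries are not independent. Among the shortest genes, of 276 to 1742 nucleotides, the median over all genes was 0.32 and 37.2% rose, and of 10 members there 6 rose. From 1743 to 2673 nucleotides the median was 0.08 and 19.0% rose, and 7 of 13 members rose. From 2674 to 3829 nucleotides it was −0.13 and 10.6%, with 5 of 15 members higher. From 3831 to 5584 nucleotides it was −0.31 and 5.82%, with 1 of 11 members higher, MCM10, and 1 lower, ORC2. Of genes of 5589 nucleotides or more, with a median of −0.49, POLE was the only member. In all, 37 of the 50 members lay above the median of their own length class.

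**Figure D3:**
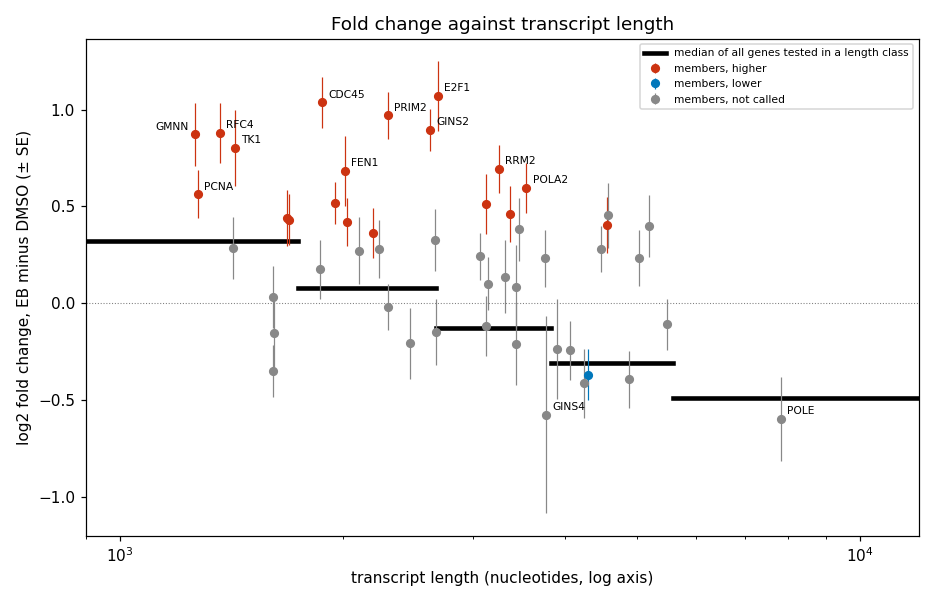
Log2 fold change, EB minus DMSO (vertical axis, with SE), against transcript length in nucleotides (horizontal log axis) for the 50 members, with the median of all genes tested in each of 5 length classes as black lines. The class medians go from 0.32 for the shortest to −0.49 for the longest genes, and 37 of 50 members lie above the line of their class.

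The comparison was therefore repeated after subtracting from each library its trend on transcript length and GC. The trend was fitted with a constant, so its removal also brought the libraries to a common level. Median-ratio scaling, which has no length term, gave 28 higher members, beside 26.8% of all genes, and 4 lower, beside 25.6%. How much of the change in calls comes from length was not tested. With the length and GC trend removed, 27 of 50 members rose (54%), beside 24.4% of all genes with a length, and 1 fell, TYMS, beside 21.8%. The median log2 fold change was 0.30 for the members and 0.02 for all genes. Of the 19 rises as deposited, 17 were called again, and CCND3 (0.34, limma adjusted p = 0.0651) and POLE2 (0.26, limma adjusted p = 0.109) were not. The fall of ORC2 was not called (−0.09, limma adjusted p = 0.417). A further 10 members were called higher: E2F2, E2F3, CDC6, CDT1, MCM3, MCM5, MCM6, POLA1, POLD1 and CHAF1B. As deposited, the groups of E2F3, MCM5, MCM6, POLA1 and POLD1 overlapped. Among the 10, E2F2 had a log2 fold change of 0.77, limma adjusted p = 8.86e-05, CDC6 of 0.77, limma adjusted p = 0.000319 and CHAF1B of 0.58, limma adjusted p = 0.00227. TYMS, with a short transcript of 1613 nucleotides, moved from an uncalled −0.35 to −0.54, limma adjusted p = 0.000613. The remaining 19 members were called in neither fit.

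By role, the corrected fit called 3 of 3 E2F factors higher, 1 of 6 cyclins and kinases (16.7%), 4 of 6 licensing genes and 7 of 12 helicase genes. It also called 3 of 6 clamp and loader genes, 4 of 8 primase and polymerase genes and FEN1 of the Okazaki pair. The same held for 2 of 4 deoxynucleotide genes and 2 of 3 chromatin genes. Of all genes 24.4% were called higher in this fit, and the roles, with few genes each, were not tested as groups. In the MCM ring, MCM3 (0.34, limma adjusted p = 0.00369), MCM5 (0.55, limma adjusted p = 0.00423) and MCM6 (0.45, limma adjusted p = 0.00178) were higher. MCM2, MCM4 and MCM7 were not called (−0.05, 0.0095 and −0.21, limma adjusted p = 0.704, 0.921 and 0.0697). E2F1 (1.13, limma adjusted p = 1.26e-05), CDC45 (0.90, limma adjusted p = 0.000294), GINS2 (0.93, limma adjusted p = 0.000463), PRIM2 (0.95, limma adjusted p = 5.25e-05) and RRM2 (0.84, limma adjusted p = 3.91e-05) were still among the largest rises. E2F3 (0.60, limma adjusted p = 0.0344), CDT1 (0.38, limma adjusted p = 0.00262), POLA1 (0.29, limma adjusted p = 0.0174) and POLD1 (0.26, limma adjusted p = 0.0467) were called in this fit, and POLA1 had changed sign. The sign also differed for MCM4, LIG1 and POLD2, none of them called in either fit. POLE, at −0.60 as deposited, was at −0.10, limma adjusted p = 0.327. CCND1 was at −0.15, limma adjusted p = 0.194.

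**Figure D4:**
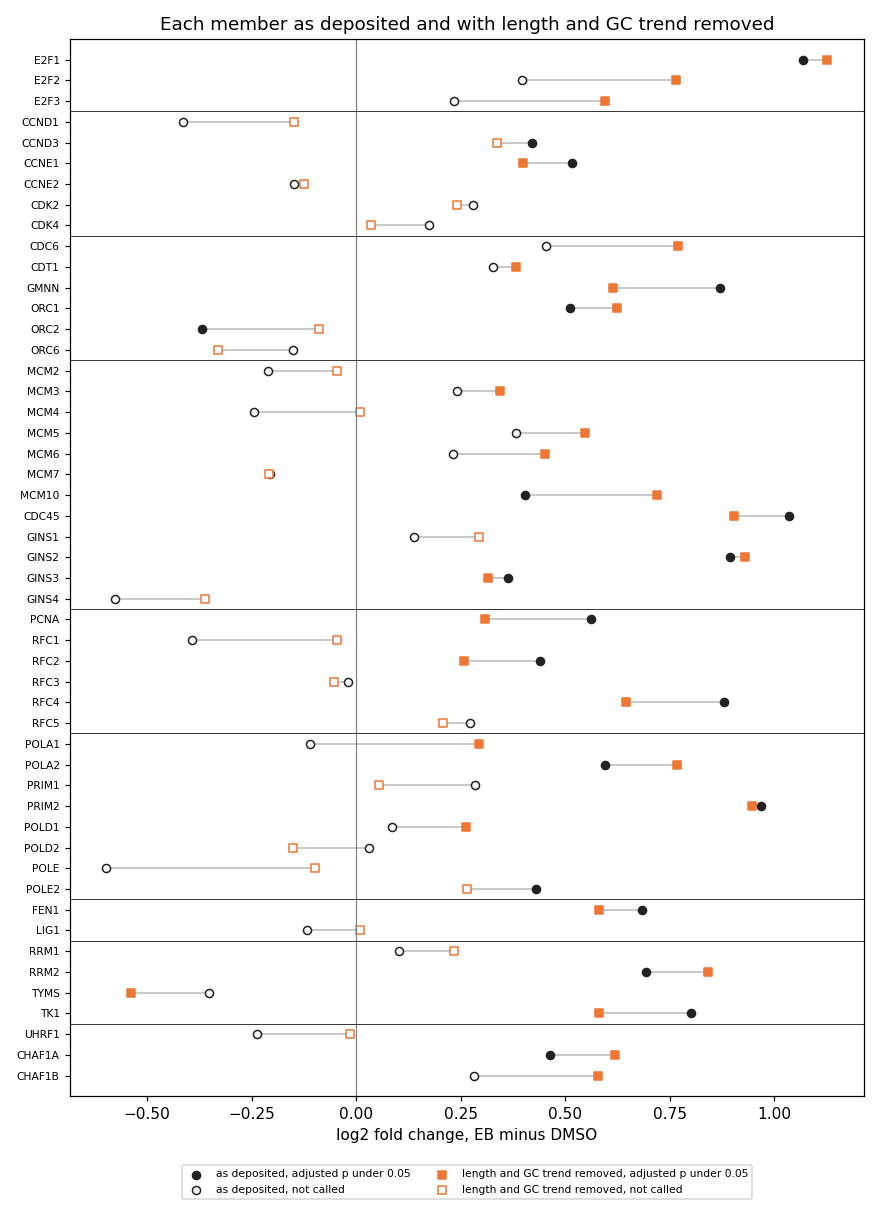
Log2 fold change, EB minus DMSO (horizontal axis), of the 50 members as deposited (black circles) and with the length and GC trend removed (orange squares), filled where the limma adjusted p was under 0.05. As deposited 19 members are filled on the right and ORC2 on the left, and with the trend removed 27 on the right and TYMS on the left.

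Ratios of (TPM + 1) of 9 pairs of partner genes were formed within each library. A common factor on a library moves them little, except for low genes, where the 1 that is added counts for much. They were compared by an exact two-sided permutation test over the 70 assignments of libraries, in which the smallest possible p is 0.0286, with Benjamini-Hochberg adjustment over the 9 ratios. The log2 ratio of CCND1 to CCND3 was 0.443 ± 0.0528 with EB and 1.28 ± 0.330 with DMSO (SD, n = 4 each), a difference of −0.83, so that cyclin D1 lost ground to cyclin D3 (exact permutation p = 0.0286, adjusted 0.0429). CCNE1 gained on CCNE2 (difference 0.66), E2F1 on E2F3 (0.84), ORC1 on ORC2 (0.88), RRM2 on RRM1 (0.59) and POLA2 on POLA1 (POLA1/POLA2, −0.70), each without overlap of the groups and each at the same exact permutation p and adjusted p. Not past the threshold were CDT1 to GMNN (−0.54, exact permutation p = 0.0571), POLE to POLE2 (−1.03, exact permutation p = 0.0857) and CDK4 to CDK6 (0.30, exact permutation p = 0.114). The last was 0.65 with a pseudocount of 0.1, so its size rests mainly on the pseudocount. The partner genes differ in length, as POLE with 7823 and POLE2 with 1692 nucleotides. With the length and GC trend removed, CCNE1/CCNE2 (0.52), ORC1/ORC2 (0.72), RRM2/RRM1 (0.61) and POLA1/POLA2 (−0.47) again had the smallest exact permutation p the design allows, 0.0286, and an adjusted p of 0.0571 over the 8 ratios that could be formed. With that smallest p, 4 ratios of 8 cannot pass the adjusted threshold. CCND1/CCND3 (−0.49) and E2F1/E2F3 (0.53) were at an exact permutation p of 0.0857.

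**Figure D5:**
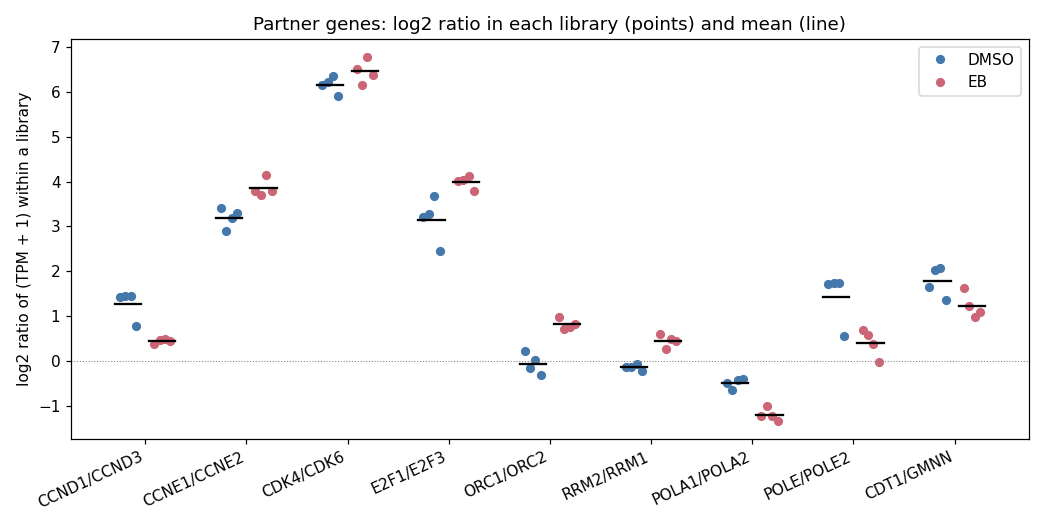
Log2 ratio of (TPM + 1) of 9 pairs of partner genes (vertical axis) in each DMSO and EB library (points), with the group mean as a line. The EB points lie all below the DMSO points for CCND1/CCND3 and POLA1/POLA2 and all above them for CCNE1/CCNE2, E2F1/E2F3, ORC1/ORC2 and RRM2/RRM1.

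Other genes of the same pathways were read from lists chosen by role. Of 33 other replication factors, 9 rose (27.3%, beside 15.2% of all genes) and 5 fell (15.2%, beside 25.1%), with a median log2 fold change of 0.09 against −0.11 over all genes. POLD4, a small subunit of polymerase delta, stood at 53.3, 58.4, 48.9 and 35.7 TPM with DMSO and 114, 107, 96.8 and 104 TPM with EB. All EB libraries were well above the DMSO libraries (log2 fold change 1.11, SE 0.16, limma adjusted p = 0.000894). TIPIN, of the fork protection complex, rose by a log2 fold change of 1.07 (limma adjusted p = 0.00261), RECQL4, a helicase of replication start, by 0.92 (limma adjusted p = 0.015) and RNASEH2C, a subunit of ribonuclease H2, by 0.92 (limma adjusted p = 0.00777). The falls, named after their values were seen, were DNA2 (−0.71), a nuclease of Okazaki fragments, MCM9 (−0.65), a relative of the MCM ring, POLD3 (−0.64), a subunit of polymerase delta, TOPBP1 (−0.52), a scaffold of origin firing, and CDC7 (−0.47), the kinase that fires origins. The groups of DNA2, MCM9 and POLD3 overlapped, and their calls were kept in 2, 3 and 2 of 8 fits without 1 library. TOPBP1 and CDC7, without overlap, kept theirs in 4 and 6 of 8. With the length and GC trend removed, 17 of the 33 rose (51.5%, beside 24.4% of all genes) and 1 fell, CDC7 (−0.34, limma adjusted p = 0.0251). Of 15 further S phase genes for nucleotides and chromatin, 3 rose (20%, beside 15.2% of all genes) and 1 fell (6.67%, beside 25.1%), with a median of 0.03. CENPU (0.76, limma adjusted p = 0.00131), of the centromere, and the histone chaperones NASP (0.50, limma adjusted p = 0.0235) and ASF1B (0.43, limma adjusted p = 0.0256) were higher. CDCA7 (−0.71, limma adjusted p = 0.0339) was lower. NASP and ASF1B each kept their call in 4 of 8 fits without 1 library, and CDCA7 in 2 of 8. With the length and GC trend removed, 5 of the 15 rose (33.3%, beside 24.4%) and 1 fell (6.67%, beside 21.8%).

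Of 22 G1/S regulators tested, 2 rose (9.09%, beside 15.2% of all genes) and 9 fell (40.9%, beside 25.1%), with a median log2 fold change of −0.41 against −0.11 over all genes. With the length and GC trend removed, 4 rose (18.2%, beside 24.4%) and 7 fell (31.8%, beside 21.8%). RB1, the retinoblastoma protein that restrains E2F, stood at 15.1, 12.6, 11.7 and 10.98 TPM with DMSO and 7.58, 7.697, 6.39 and 6.04 TPM with EB. Its EB libraries were all below the DMSO libraries (log2 fold change −0.78, SE 0.14, limma adjusted p = 0.00242), also with the trend removed (−0.46, limma adjusted p = 0.00462). RBL2, its relative p130, fell further (log2 fold change −1.31, SE 0.17, limma adjusted p = 0.000544). E2F7, a repressor E2F, was lower (log2 fold change −0.87, limma adjusted p = 0.0185), at 0.736 to 4.20 TPM and with DMSO replicate 4 (1.43 TPM) within the EB range. FBXW7, which marks cyclin E for degradation, was lower too (−0.72, limma adjusted p = 0.0377), though not with the trend removed (−0.31, limma adjusted p = 0.235). The other falls, named after their values were seen, were E2F5 (−0.62), MYC (−0.55), TFDP1 (−0.53), CCNA2 (−0.40) and FBXO5 (−0.36). Of these, MYC was not called with the trend removed (−0.34, limma adjusted p = 0.114). The rises were CKS1B (0.62) and LIN37 (0.50). The groups of LIN37 overlapped, and it was not called with the trend removed (0.18, limma adjusted p = 0.197). The calls of LIN37 and FBXO5 were each kept in 2 of 8 fits without 1 library. With the trend removed, E2F6, CDC25A and MYBL2, named after their values were seen, rose beside CKS1B.

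Of 5 CDK inhibitors tested, CDKN1A rose (20%, beside 15.2% of all genes) and CDKN1B and CDKN2C fell (40%, beside 25.1%). CDKN1A, the p21 inhibitor of CDK2, stood at 17.6, 13.5, 15.4 and 8.14 TPM with DMSO and 37.3, 38.0, 33.4 and 31.2 TPM with EB. The lowest EB library was above the highest DMSO library by a wide margin (log2 fold change 1.34, SE 0.21, limma adjusted p = 0.00129). CDKN1B, the p27 inhibitor, stood at 32.6, 37.2, 32.3 and 28.04 TPM with DMSO and 20.1, 19.5, 16.2 and 14.2 TPM with EB. The groups were apart in the other direction (log2 fold change −0.86, SE 0.15, limma adjusted p = 0.00205). CDKN2C, an inhibitor of CDK4 and CDK6, fell by less (log2 fold change −0.49, SE 0.17, limma adjusted p = 0.0455). Its groups overlapped, with DMSO replicate 4 at 27.9 TPM and EB at 22.5 to 31.5 TPM, and the call was kept in 1 of 8 fits without 1 library. With the length and GC trend removed, 1 rose (20%, beside 24.4%) and 3 fell (60%, beside 21.8%). The added fall was CDKN1C, named after its value was seen (−0.63, limma adjusted p = 0.0387). Its groups overlapped as deposited, at 1.53 to 4.90 TPM over all libraries. CDKN2A and CDKN2B were listed at 0 in all 8 libraries and were not tested.

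Of 12 proliferation markers, 1 rose (8.33%, beside 15.2% of all genes) and 3 fell (25%, beside 25.1%). Their median log2 fold change of −0.13 was near the −0.11 of all genes. With the length and GC trend removed, again 1 rose and 3 fell (beside 24.4% and 21.8%), where CCNB2 and AURKA, named after their values were seen, took the place of MKI67 and CENPF among the falls. MKI67, the Ki-67 antigen of cycling cells, stood at 83.2, 87.9, 104 and 74.0 TPM with DMSO and 44.5, 69.7, 38.0 and 46.7 TPM with EB. Its EB libraries were all below the DMSO libraries (log2 fold change −0.82, SE 0.19, limma adjusted p = 0.00839), but its transcript has 12716 nucleotides and it was not called with the trend removed (−0.27, limma adjusted p = 0.14). CENPF, a kinetochore protein with 10290 nucleotides, behaved alike (−0.65, limma adjusted p = 0.00567, and −0.10, limma adjusted p = 0.508 with the trend removed). TOP2A, a topoisomerase of dividing cells, was lower in both fits (−0.94, limma adjusted p = 0.00104, and −0.54, limma adjusted p = 0.00104), and AURKB, the mitotic kinase, was higher in both (0.68, limma adjusted p = 0.00956, and 0.40, limma adjusted p = 0.00955). Of the duct markers, with log2 fold changes in brackets, KRT19 (1.80), KRT18 (1.49) and KRT8 (1.20) were higher and MUC1 (−2.04) and SOX9 (−1.38) lower, and of the fibroblast markers COL1A2 (−0.83) and COL1A1 (−0.60) were lower, each at a limma adjusted p under 0.05. None of the leukocyte and endothelial markers reached the filter.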

How the data were processed

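RNA of PANC-1 cells under 10 μM EB or DMSO for 24 h was sequenced in 4 libraries per group. According to the methods, the authors trimmed, mapped, counted and normalized the reads in CLC Genomics Workbench and used further tools such as HISAT2 and StringTie, and they deposited TPM per gene. For the genome, the methods name GrCM38 as well as hg38, and the submitters' processing notes list GRCm38, mm10 and hg38, whereas all gene identifiers in the table are human. Counts and depth per library are not known from TPM, so precision rests on the spread between libraries. All 8 columns of values were used and 0 were left out. Samples were grouped by the treatment in their labels.

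Genes at 1 TPM or more in 4 or more libraries were compared on log2(TPM + 1), which understates changes of low genes, by limma 3.58.1 in R 4.3.3 (lmFit, then eBayes with no trend, 3.88 prior degrees of freedom), with Benjamini-Hochberg adjustment over 11725 genes. Symbols, positions and lengths came from GENCODE release 44 on hg38 (20148 of 20263 identifiers matched), and promoters from RefSeq. The trend on length and GC content was fitted in each library as splines with 5 degrees of freedom each on the deviation from the gene's mean, over nuclear genes with a length, and subtracted. The fit held a constant for each library, so subtracting it also removed differences in level between libraries. Log2 ratios of 9 pairs were compared by exact permutation in scipy 1.17.1. Tables were handled in pandas 2.3.3 and plots drawn in matplotlib 3.10.9. The steps were tested on simulated data.

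The members, lists and tests were chosen with earlier results of these data known. Library values are given, by role, for up to 3 called members, those of largest absolute change, filled to 2 by highest mean TPM. They are also given for most members whose call or sign differed with the trend removed and for most genes of the ratios. MCM3, MCM4, MCM5, MCM6, POLD1, POLD2, CDK4 and RRM1 have log2 fold changes without library values. CDK6, which was not tested, has its range. Of each further list, up to 4 called genes of largest absolute change are named, and CDKN1A, CDKN1B, CDKN2A, RB1 and MKI67 in any case. As alternatives, scaling was by median ratios, by quantiles or over nuclear genes only, low genes were kept or cut at 5 TPM, the pseudocount was 0.1, eBayes took an intensity trend, the length trend was removed with and without GC, the replicate number was a block, and each library was left out. Raw reads were not used here.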

Additional observations from a re-analysis of the deposited data

Results flagged for a closer look

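Of the 102 groups of 4 libraries formed by the members, 14 held a library far from the nearest of the other 3 by Dixon's criterion. Chance would mark about 1 in 20 independent groups, which is 5.1 of 102, but these groups come from the same 8 libraries and are not independent. The share over all genes was not computed, so the 14 cannot be read as a trait of the members. DMSO replicate 4 was the lowest DMSO library for 77% of all genes tested. DMSO replicate 4 was the library that stood apart in 11 of the 14. It was low for E2F2 (4.72 TPM), CCND1 (50.6 TPM), CDC6 (14.9 TPM), CDT1 (64.4 TPM), MCM2 (105 TPM), MCM6 (47.5 TPM), POLD2 (224 TPM), POLE (35.4 TPM), LIG1 (30.2 TPM) and TYMS (178 TPM), and high for POLE2 (23.8 TPM). This is the library with the largest mitochondrial share, and the part of that share in these values was not tested. Among the other libraries, GMNN stood high in DMSO replicate 1 (30.6 TPM), PRIM1 stood low in DMSO replicate 3 (12.6 TPM), and GINS4 stood high in EB replicate 2 (62.7 TPM). Of these genes, GMNN and POLE2 were called as deposited, and GMNN kept its call without each library.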

How the results depend on the processing

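The members called higher numbered 15 to 28 in the alternatives that keep all libraries, and 12 to 18 without 1 library, beside 11.8 to 26.8% and 10.6 to 15.7% of all genes. The members called lower, 1 as deposited, numbered 0 with a pseudocount of 0.1, 2 without a filter, 2 with an intensity trend, 4 with median-ratio scaling, 7 with quantile normalization, 9 over nuclear genes only and 0 to 9 without 1 library. Of all genes, 18.8 to 41.4% were lower in the former and 16.9 to 36.4% in the latter. The median of all genes moved from −0.11 to 0.01 under median-ratio scaling and to −0.28 over nuclear genes only, and the median of members from 0.28 to 0.41 and 0.10. Relative to all genes, members lay higher in each. Removing the length and GC trend with each library left out, which was added after seeing the data, gave 21 to 27 higher members and 2 lower, in place of 1, without DMSO replicate 4 (MCM7, TYMS) and without EB replicate 2 (GINS4, TYMS). No member passed the unadjusted p and fold thresholds in any alternative. The cause of these shifts was not tested.

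Signs turned only in 10 members that were not called as deposited. With the length and GC trend removed they were MCM4 (0.0095), LIG1 (0.0087), POLA1 (0.29) and POLD2 (−0.15), with length alone MCM4 (0.0073), LIG1 (0.0032), POLA1 (0.28) and POLD2 (−0.15). Under median-ratio scaling they were RFC3 (0.11), POLA1 (0.015) and LIG1 (0.010), under quantile normalization CCNE2 (0.17), RRM1 (−0.028), POLA1 (0.039), RFC3 (0.019) and POLD2 (−0.18), and over nuclear genes only RRM1 (−0.082), CDK4 (−0.0091), GINS1 (−0.035), POLD1 (−0.097) and POLD2 (−0.15). Without 1 library, RFC3 ran from −0.066 to 0.037, GINS1 from −0.012 to 0.24, POLD1 from −0.14 to 0.20 and POLD2 from −0.13 to 0.10. Of the ratios past the threshold, removal of the trend gave differences of −0.49 for CCND1/CCND3, 0.53 for E2F1/E2F3, 0.52 for CCNE1/CCNE2, 0.72 for ORC1/ORC2, 0.61 for RRM2/RRM1 and −0.47 for POLA1/POLA2. The last 4 kept the smallest p that 4 against 4 libraries allow, which over 8 ratios adjusts to 0.0571.

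The groups share replicate numbers. The deviations of same-numbered libraries correlated at 0.18, 0.05, −0.09 and 0.28, and those of differently numbered libraries at −0.24 to 0.13. The values for replicates 1 and 4 were thus the largest, and whether the libraries are pairs cannot be told from so few values. The numbers were not taken as pairs in the fit as deposited, and a fit with them as a block stands beside it. As a replicate block, the numbers gave 21 higher and 5 lower members, beside 19.0% and 30.1% of all genes. With the length and GC trend removed as well, there were 27 higher and 2 lower, beside 25.7% and 23.0%. With 4 libraries per group and no depth, smaller changes could not be resolved.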
